A study of Oryza sativa Japonica Group with 6 samples.

Results

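The plant cell wall genes examined here were 196 of the 21495 gene probes of a rice array: every probe whose description names a cellulose synthase or cellulose synthase-like protein, a xyloglucan, xylan, pectin or callose enzyme, a cellulase or other endo-1,4-beta hydrolase, a beta-glucosidase, a galactosidase, an extensin or an arabinogalactan protein. Probes described as chitinases or 1,3-beta enzymes were left out. The rule uses descriptions and no measured value, although it was written with earlier results of these data known. The 196 probes carried 112 different descriptions, and 25 of the probes were described by a rice sequence. For the others the description is a best match from another species, so a name such as "XOPG1-like" says what the cDNA resembles and not what its product was shown to do. Each probe is called by the accession of its rice cDNA. Probes with the same description may detect 1 gene, close relatives or different genes.

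Coleoptiles of the rad mutant of rice were set against coleoptiles of wild type, both of the cultivar Kinmaze. The series names the mutant for its reduced alcohol dehydrogenase activity, the enzyme that ends ethanol fermentation, and the labels do not name the mutated gene. In both genotypes 15 seeds were placed in a bottle holding 1 L of deionized water and germinated submerged, and coleoptile tissue was laser-dissected from frozen sections 8 µm thick; the labels give no age. RNA of the mutant and of wild type shared each of 6 two-colour arrays: there were 3 replicates, and every replicate had an array pair with the dyes swapped.

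The coleoptile is the sheath around the first leaf of a grass seedling, and in rice it elongates under water by cell expansion. A growing wall is a network of cellulose microfibrils, made at the plasma membrane by CesA subunits, in a matrix of other polysaccharides that Golgi enzymes make and wall enzymes trim. In grasses the matrix is rich in arabinoxylan and, in young tissue, mixed-linkage glucan, with less xyloglucan and pectin than in most other flowering plants. Glycoside hydrolases shorten or debranch these polymers, and esterases set the charge of pectin.

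Ratios below are log2 values of mutant over wild type, given as the mean ± SD over 3 replicates (n = 3), where the arrays of a dye-swap pair were averaged first. A probe was called higher or lower at an adjusted p under 0.05 in limma's moderated test, with Benjamini-Hochberg adjustment over all 19947 probes tested. Intensities are normalised brightness values per genotype, averaged over the dye-swap pair, and cannot be set against those of another probe. They include an offset of 50 added in the background correction. For dim probes, and for sums over dim probes, this narrows the contrast between genotypes. Whether the replicates were separate cultures is not stated in the labels, and the p-values then cover only how far these samples differ, which may be technical. In dissected tissue, fewer cells of a type and less RNA per cell cannot be told apart.

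Between 90.4% and 95.7% of the array's probes were well above background per channel. Signals stood at a median of 4 to 10.3 times the background around the spot. Precision is limited by the number of arrays. Replicate 3 stood apart in 1 marker list. The summed intensity of 9 probes described as root genes was 24794, 27137 and 62491 in the mutant (replicates 1, 2 and 3), against 77371, 72371 and 60202 in wild type. The median ratio of the 6 root probes tested was -0.65 in replicate 1, -0.66 in replicate 2 and 0.01 in replicate 3; 2 of the 6 were called lower and 1 of the 9 was saturated on some array. Root probes were thus read in wild type in every replicate, and were as bright in the mutant in replicate 3 only; 1 of the 9 was below background in both genotypes on every array. Over all probes tested, 10.1% were called lower and 14.6% higher, the shares to set beside each marker list. Of the other markers, 9 of 36 tested photosynthetic leaf probes (25%) were called lower and 2 (5.56%) higher (median -0.07). Their summed intensity was 35572 to 36912 in the mutant and 32402 to 34781 in wild type. Seed storage probes summed to 3739 to 3980 in the mutant and 2918 to 3159 in wild type, with 1 of 13 called higher and none lower. Aleurone amylase probes summed to 2546 to 2632 in the mutant and 2662 to 2777 in wild type, with 2 of 15 called lower and none higher. Lignification probes summed to 11483 to 12995 in the mutant and 11622 to 12059 in wild type, with 1 of 17 called higher and none lower. Below background on every array in the mutant were 2 leaf, 2 storage and 2 aleurone probes, against 0, 2 and 0 in wild type. No probe of these lists is particular to the coleoptile, so the labelled tissue was not checked by a marker of its own. The part of other tissues in the ratios of the wall probes was not tested.

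Of the 196 wall probes, 174 were bright enough to test and 22 were too dim, being above background on fewer than 4 arrays in each genotype. In the mutant, 15 of the 174 were called higher and 31 lower, while 128 were not called. Over all probes tested, 14.6% were called higher and 10.1% lower, 24.7% in all, against 8.62% and 17.8% of the wall probes, 26.4% in all. The share called at all was therefore near that of the array, while the split ran the other way: most calls on the array were higher in the mutant and most calls among wall probes lower. With no filter on brightness, 15 of the 196 (7.65%) were called higher and 30 (15.3%) lower, against 13.6% and 9.37% of all probes. Changes of at least 2-fold were more frequent than on the array: 7 wall probes, or 4.02%, were called and at least 2-fold higher, where 1.79% of all probes were, and 9, or 5.17%, were called and at least 2-fold lower, where 0.822% of all probes were. These shares are descriptions, and the list as a whole was not tested.

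The wall probes as a group barely shifted. Their median ratio was -0.04, that of all probes was -0.01, and 114 of the 128 uncalled probes lay within 0.2 of no change. The range ran from -1.99 for a beta-glucosidase to 2.41 for a xyloglucan endotransglycosylase. Replicate ratios of the wall probes spread more widely than those of all probes, with an SD of 0.595, 0.66 and 0.591 in replicates 1, 2 and 3 against 0.391, 0.401 and 0.363. Of the 46 called probes, 44 had the same sign on all 6 arrays, as had 4763 of the 4929 called probes of the array. In 39 of the 46 the 3 mutant intensities and the 3 wild-type intensities did not overlap. Overlap was not counted over the array, and probes called by a small p tend to have both traits. Removing 1 replicate changes the counts. Without replicate 1, 8 were called higher and 10 lower, and likewise without replicate 2, against 17 and 31 without replicate 3. The 8 and 10 are 4.6% and 5.75% of the wall probes. All probes stood at 4.8% higher and 2.67% lower without replicate 1, and 3.79% and 2.15% without replicate 2. Without replicate 3 the shares were 9.77% and 17.8% of wall probes, against 13.8% and 9.16% of all probes. The wall share called higher was thus near that of all probes without replicate 1, and above it without replicate 2.

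**Figure D1:**
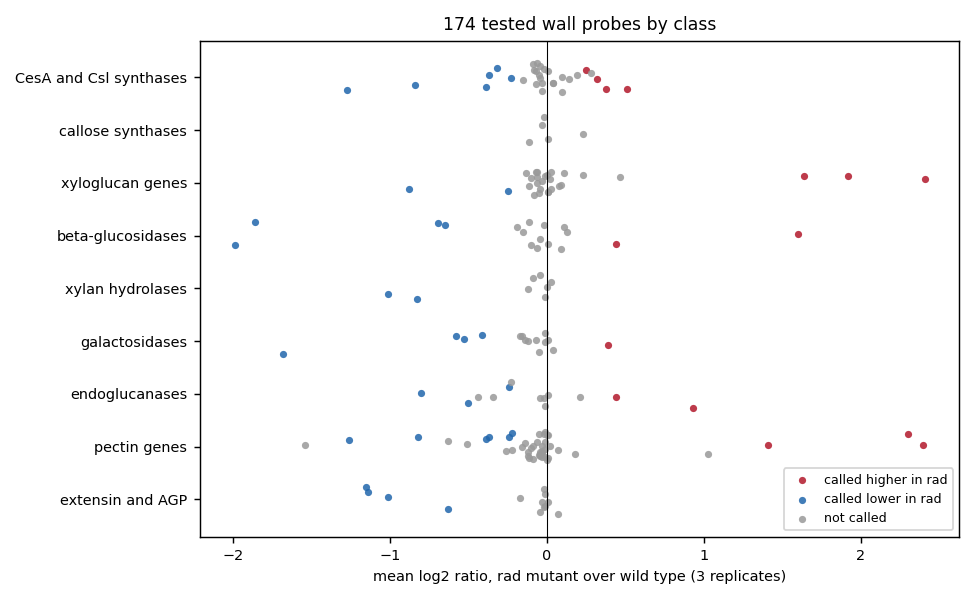
Mean log2 ratio of rad mutant over wild type (x axis) for each of the 174 tested wall probes, 1 point a probe, by class (y axis; vertical scatter within a class has no meaning), coloured by the call at an adjusted p under 0.05. Most points lie near 0, and each class but the callose synthases holds called probes.

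**Figure D2:**
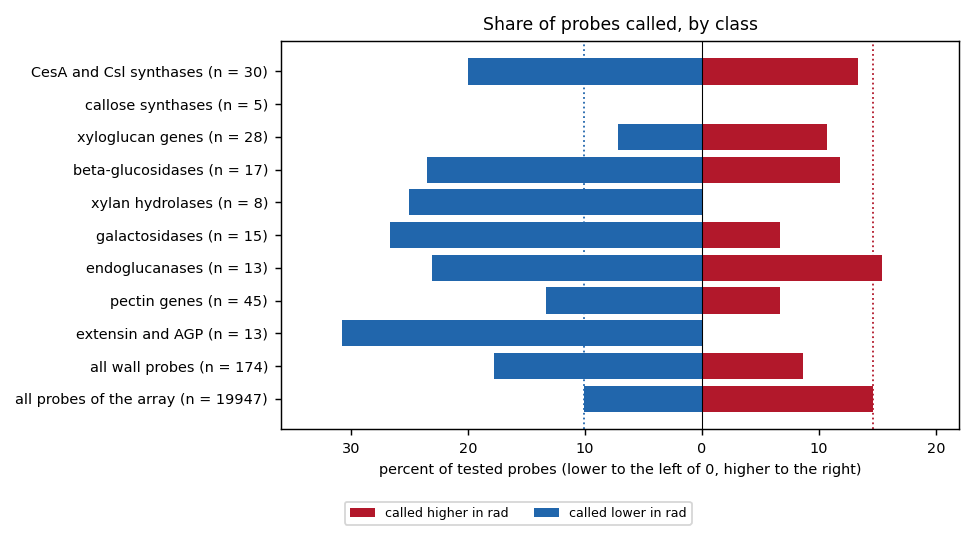
Percent of tested probes called higher (right of 0, red) and lower (left of 0, blue) in the rad mutant for each wall class, all wall probes and all probes of the array; dotted lines mark the values of all probes, 14.6% higher and 10.1% lower. The class of extensin and arabinogalactan proteins (AGP) had 30.8% called lower and 0% higher.

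Among cellulose synthases and their relatives, 4 of 30 tested probes (13.3%) were called higher and 6 (20%) lower, with a median of -0.03, against 14.6% and 10.1% of all probes. Only the CSLD4-like AK067424 fell by more than 2-fold. CesA proteins are the catalytic subunits of the cellulose synthase complex, and the cellulose synthase-like (CSL) families make matrix glycans or, for CSLD, are known for tip-growing cells such as root hairs and pollen tubes.

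The CSLD probe AK067424, which matches poplar CSLD4, read 885, 741 and 1053 in the mutant, against 2210, 2049 and 2141 in wild type. Its ratio was -1.27 ± 0.23 (2.41-fold lower, adjusted p = 0.00512), and each mutant intensity lay far below each wild-type one. Of the 3 other probes with this description, AK105393 gave -0.03 ± 0.18 (adjusted p = 0.813) and the remaining ones were too dim to test. The rice CSLC7 probe AK110759, of the family that makes the glucan backbone of xyloglucan, read 574, 516 and 671 in the mutant and 1069, 1015 and 1044 in wild type, a ratio of -0.84 ± 0.18 (adjusted p = 0.00677). It was the only CSLC probe among the wall probes.

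Members of the mannan synthase family CSLA gave values on both sides of 0. AK064833, described as rice CSLA7, was lower (-0.39 ± 0.19, adjusted p = 0.0362), as was AK110960, described as CSLA2 (-0.23 ± 0.07, adjusted p = 0.0285). A second CSLA7 probe, AK111424, gave 0.01 ± 0.10, and the CSLA6 probe AK058756 gave 0.74, 0.28 and -0.19 in replicates 1, 2 and 3, which do not share a sign. CSLF6 is the main mixed-linkage glucan synthase of grasses. The CSLF6 probe AK065259 was higher in the mutant, with 588, 627 and 726 against 478, 529 and 477 in wild type (0.38 ± 0.19, adjusted p = 0.0397; 0.0569 with scaling between arrays after loess, 0.134 without replicate 1 and 0.0968 without replicate 2), but the other CSLF6 probe, AK106763, gave -0.04 ± 0.09 (adjusted p = 0.602). CSLF2 (AK100523, -0.08 ± 0.04), CSLE1 (AK102766, 0.19 ± 0.17) and CSLH1 (AK069071, 0.10 ± 0.23) were not called.

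Among 13 tested probes described as named CesA proteins, 2 were called higher and 2 lower. Those resembling maize CesA-1 (AK100188, -0.32 ± 0.01, adjusted p = 0.00843) and CesA-9 (AK072356, -0.37 ± 0.06, adjusted p = 0.00983) were lower. AK100188 read 617, 622 and 616 in the mutant and 777, 768 and 767 in wild type. A probe resembling maize CesA-8 (AK100914) was called higher at 0.25 ± 0.11 (adjusted p = 0.0375), yet gave 0.09 (adjusted p = 0.285) with median centring in place of loess and lost its call with the replicate block and a dye term (0.0635). The CesA-7-like AK059649 was called at 0.32 ± 0.11 (adjusted p = 0.0218) with the same sign on 4 of 6 arrays only: it gave 0.66 where the mutant carried Cy5 and -0.01 where it carried Cy3, and its adjusted p was 0.151 with the replicate as a random block, so its direction rests on 1 dye. The remaining call was AK107881, described as an Arabidopsis putative cellulose synthase catalytic subunit (At1g55850) and not counted among the named CesA probes. It was higher (0.51 ± 0.19, adjusted p = 0.0188), while AK111344 and AK101487 of that description were not called. Without replicate 1, 8 of the 10 calls in this class were lost (adjusted p between 0.0533 and 0.156), as were 8 without replicate 2 (0.0704 to 0.157) and 2 without replicate 3 (0.0827 and 0.0917); AK067424 alone kept its call in all 3 cases.

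Callose synthases, which make the 1,3-beta-glucan of cell plates and of walls under stress, gave no call at an adjusted p under 0.05 in the averaged pairs. All 5 probes were tested, with a median of -0.02, and 2 had an unadjusted p under 0.05 in limma. Their means lay between -0.11 and 0.23. AK105109, which resembles Arabidopsis CalS1, gave 0.23 ± 0.15 (adjusted p = 0.0808; 95% interval 0.05 to 0.41 before adjustment). It was called higher with the replicate as a random block (adjusted p = 0.0108, and 0.0224 with a dye term) and, at 0.30, just past the threshold without replicate 3. AK071856 gave -0.11 ± 0.01 (adjusted p = 0.0808; interval -0.20 to -0.02) and was called lower, at -0.19, where the mutant carried Cy5 (adjusted p = 0.0347), and AK069531 gave 0.01 ± 0.06 (adjusted p = 0.875; interval -0.10 to 0.12), whose sign turned under 3 of the alternatives.

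Xyloglucan genes held the greatest rise of all wall probes. Of 28 tested probes 3 (10.7%) were called higher, each at least 3-fold, and 2 (7.14%) lower. Over all probes the shares were 14.6% and 10.1%, and the class median was -0.01. Xyloglucan endotransglycosylases cut a xyloglucan chain and join its end to another chain, and some hydrolyse it. AK070734, described as a rice xyloglucan endotransglycosylase, read 2284, 2542 and 3442 in the mutant, against 499, 523 and 506 in wild type. This is a ratio of 2.41 ± 0.31, or 5.33-fold (adjusted p = 0.00355), with no overlap between genotypes and a call in every alternative that gave a value. A second probe of the same description, AK063614, gave -0.01 ± 0.12 (adjusted p = 0.926).

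Fucosyltransferases add the terminal fucose of xyloglucan side chains in dicots. All 11 such probes share a single pea description, 10 were tested, and only AK071664 was called. It read 181, 255 and 261 in the mutant and 78.6, 71.6 and 71.3 in wild type (1.64 ± 0.38, 3.11-fold, adjusted p = 0.00681). The wild-type level was low, well above background on 5 of 6 arrays, and the size of the ratio depends on the background step: it was 3.21 with no offset and 3.30 from the scanner's processed signals. A further rise was that of AK070554, like a tomato protein that inhibits a fungal xyloglucan-specific endoglucanase and so acts against an enzyme of microbes. It read 3890, 6126 and 5236 in the mutant and 1628, 1268 and 1106 in wild type (1.92 ± 0.58, 3.80-fold, adjusted p = 0.0107; 0.0584 without replicate 2). The mutant was higher in each replicate, least so in replicate 1. The other 2 probes of that description were not called.

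Endotransglycosylase-like probes also fell. AK059277, like Arabidopsis At4g03210, read 354, 364 and 479 in the mutant and 682, 582 and 970 in wild type (-0.88 ± 0.18, adjusted p = 0.00623; 0.0543 without replicate 1). AK061284, like the Arabidopsis endotransferase EXGT-A3, was lower by less (-0.25 ± 0.06, adjusted p = 0.0206) and its call depended on all 3 replicates, since the adjusted p was 0.101, 0.0851 and 0.0579 without replicates 1, 2 and 3, and 0.0515 with the replicate block and a dye term. In all, 1 of 15 tested endotransglycosylase probes was called higher and 2 lower. Of those not called, AK060654, like a barley endotransglycosylase, gave 0.05, 0.45 and 0.90 in replicates 1, 2 and 3 (0.47 ± 0.43, adjusted p = 0.128), and AK061093, like a wheat enzyme, gave 0.52, -0.06 and 0.23 (adjusted p = 0.242). The replicates of AK061093 did not share a sign.

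**Figure D3:**
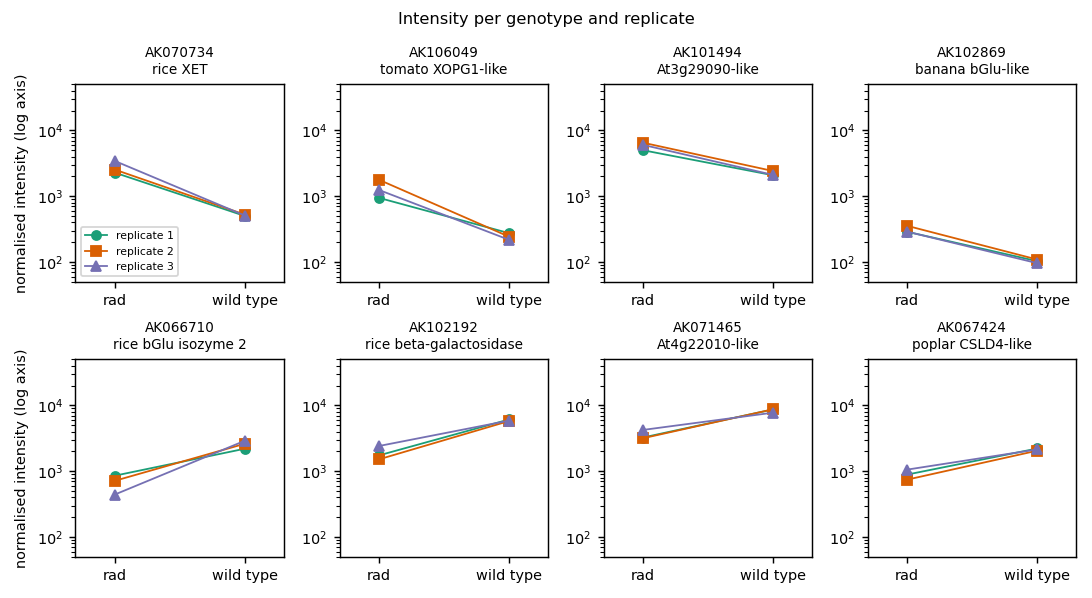
Normalised intensity (log axis) of 8 wall probes in rad mutant and wild-type coleoptiles, 1 line a replicate. In each panel the 3 mutant values lie on one side of the 3 wild-type values: AK070734, AK106049, AK101494 and AK102869 are higher in the mutant, and AK066710, AK102192, AK071465 and AK067424 lower.

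Beta-glucosidases showed some of the widest changes in either direction. Of 17 tested probes 2 (11.8%) were called higher and 4 (23.5%) lower, against 14.6% and 10.1% of all probes (class median -0.06). These enzymes release glucose from cellobiose and short wall oligosaccharides, and others of the family act on hormone conjugates and defence glucosides; the descriptions do not tell which substrate applies. AK066710, described as rice beta-glucosidase isozyme 2, fell the most of any called wall probe. It read 852, 712 and 440 in the mutant, against 2197, 2619 and 2909 in wild type, a ratio of -1.99 ± 0.69 (3.98-fold lower, adjusted p = 0.0140; 0.0731 without replicate 2). Its replicate ratios were -1.37, -1.88 and -2.73, the largest change being in replicate 3.

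Of the other isozyme 2 probes, AK059210 was lower (-0.65 ± 0.18, adjusted p = 0.0108; 0.0562 without replicate 2) and AK067231 gave 0.01 ± 0.07 (adjusted p = 0.855). AK105026, a further rice beta-glucosidase, read 3090, 3510 and 3636 in the mutant and 5411, 5627 and 5404 in wild type (-0.69 ± 0.12, adjusted p = 0.00591). Genotypes were well separated for this probe, which was called in every alternative.

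Among 6 tested probes described by a banana beta-glucosidase, 1 was called higher and 1 lower. AK102869 read 289, 356 and 290 in the mutant, against 103, 109 and 96.0 in wild type (1.60 ± 0.10, 3.03-fold, adjusted p = 0.00204). This was the smallest adjusted p of all wall probes, and the ratio was 2.44 with no offset and 2.54 from the processed signals, since the wild-type signal was dim. AK067934 of the same description read 348, 371 and 1127 in the mutant, against 2377, 1629 and 1801 in wild type. Its replicate ratios were -2.77, -2.14 and -0.68 (mean -1.86 ± 1.07, adjusted p = 0.0444), and its mutant level in replicate 3 stood apart from the others, as did the summed root markers given above. Without replicate 3 it was -2.45 (adjusted p = 0.00629), without replicate 1 -1.41 (0.165) and without replicate 2 -1.72 (0.179). The clover linamarase-like AK068304 was higher by 0.44 ± 0.08 (adjusted p = 0.00831; 0.06 without replicate 1); it was saturated in the mutant on 2 arrays and in wild type on 1, and gave 0.19 with median centring.

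Of the 8 tested probes of the xylan class, 2 (25%) were called lower and none higher, against 10.1% and 14.6% of all probes. The class median was -0.06. Xylanases cut the backbone of xylan, the main matrix polymer of grass walls, and arabinofuranosidases and beta-xylosidases remove its side groups and end sugars. The class was set by description and also holds an alpha-xylosidase-like probe and a xylanase inhibitor-like probe, neither of which was called. AK105545, like a papaya endoxylanase, read 229, 225 and 250 in the mutant, against 433, 405 and 416 in wild type (-0.83 ± 0.09, adjusted p = 0.00395), and was called in every alternative. AK101782, like a barley alpha-L-arabinofuranosidase and beta-D-xylosidase, read 1237, 1030 and 852 in the mutant and 2236, 1835 and 2165 in wild type (-1.01 ± 0.29, 2.02-fold lower, adjusted p = 0.0103; 0.0611 without replicate 1). Neither probe's genotypes overlapped. AK106160, named for its brightness in this class, gave -0.04 ± 0.04 (adjusted p = 0.466), with 0.04 where the mutant carried Cy3.

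Of 15 tested galactosidase probes, 4 were called lower (26.7%, against 10.1% of all probes) and 1 higher (6.67%, against 14.6%), with a median of -0.12. Only 2 were called lower without replicate 1, and likewise without replicate 2; the difference between directions was not tested. Beta-galactosidases remove galactose from side chains of pectin, xyloglucan and arabinogalactans, and alpha-galactosidases act on raffinose sugars and galactomannans. AK102192, described as a rice beta-galactosidase, read 1732, 1507 and 2406 in the mutant, against 6109, 5784 and 5872 in wild type. Its ratio was -1.68 ± 0.35 (3.21-fold lower, adjusted p = 0.00595; 0.0526 without replicate 1). Mutant values varied more than wild-type ones, and the highest of them, 2406, lay far below the lowest wild-type value, 5784.

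Smaller beta-galactosidase changes were seen for AK065546, like Arabidopsis BGAL9 (-0.53 ± 0.16, adjusted p = 0.0127; 0.0605 without replicate 2), and for AK067479, like strawberry beta-gal2 (-0.41 ± 0.01, adjusted p = 0.00559; 0.0515 without replicate 2). In all, 3 of 9 beta-galactosidase probes were lower and none was higher. Alpha-galactosidases split: AK058373, described from rice, was lower (-0.58 ± 0.10, adjusted p = 0.00654; 0.0537 without replicate 1), while the bean-like AK067532 was higher (0.39 ± 0.05, adjusted p = 0.00765; 0.0598 without replicate 2).

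Cellulases and other endo-1,4-beta hydrolases gave 2 calls higher (15.4%) and 3 lower (23.1%) among 13 tested probes (median -0.04). The shares over all probes were 14.6% and 10.1%. Plant endo-1,4-beta-glucanases trim cellulose and related glucans, and mannanases cut mannan chains. A set of 3 probes is described by a cellulase of the yeast Filobasidiella neoformans, and their plant function is not given. AK065000 of this set read 13388, 19881 and 13343 in the mutant, against 7929, 8246 and 7820 in wild type (0.93 ± 0.29, adjusted p = 0.0124; 0.0636 without replicate 1). AK060558 went the other way, with 499, 742 and 938 in the mutant and 1035, 1296 and 1378 in wild type (-0.80 ± 0.25, adjusted p = 0.0124; 0.0527 without replicate 1 and 0.0737 without replicate 2). The remaining probe of the set, AK064349, gave 0.01 ± 0.03.

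The same held for the pair of probes resembling the mannanase At5g66460. AK105536 was higher (0.44 ± 0.10, adjusted p = 0.0103; 0.0644 and 0.0562 without replicates 1 and 2), and AK071667 was lower (-0.24 ± 0.09, adjusted p = 0.0348; 0.0929, 0.144 and 0.0703 without replicates 1, 2 and 3). Among 7 endo-glucanase probes, 1 was called, the pear-like AK103304 (-0.50 ± 0.18, adjusted p = 0.0177; 0.0625 without replicate 2). The strawberry Cel1-like AK060686 was not called and gave 0.03, -0.34 and -1.01 in replicates 1, 2 and 3.

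Pectin genes were the largest class, with 55 probes and 45 tested (median -0.04). In this class 3 (6.67%) were called higher, each at least 2-fold, and 6 (13.3%) lower, against 14.6% and 10.1% of all probes. Pectin methylesterases strip methyl groups from homogalacturonan, and polygalacturonases and pectate lyases then cut the chain. The pectinesterase-like probes held large changes of opposite sign. AK101494, like Arabidopsis At3g29090, read 5007, 6519 and 6041 in the mutant, against 2080, 2411 and 2105 in wild type (1.41 ± 0.13, 2.65-fold, adjusted p = 0.00288), and was called in every alternative. AK071465, described only as pectinesterase-like (At4g22010), read 3238, 3157 and 4226 in the mutant, against 8687, 8731 and 7750 in wild type. Its ratio was -1.26 ± 0.33 (2.39-fold lower, adjusted p = 0.00872, with 0.0656 without replicate 1 and 0.0505 without replicate 2). In both, the genotypes did not overlap. The citrus PME4-like AK101251 was also lower (-0.37 ± 0.17, adjusted p = 0.0342). Of the 24 tested probes described as pectin methylesterase or pectinesterase, 1 was called higher and 2 lower. AK071465 is counted there by its description alone.

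A pair of polygalacturonase probes resembling tomato XOPG1 rose together. AK106049 read 946, 1786 and 1249 in the mutant, against 274, 242 and 217 in wild type (2.40 ± 0.56, 5.28-fold, adjusted p = 0.00680). AK105858 read 953, 1726 and 1267 in the mutant and 288, 253 and 238 in wild type (2.30 ± 0.53, 4.94-fold, adjusted p = 0.00669). Their values run so close in every sample that they may detect 1 gene; both were called in every alternative. Another XOPG1-like probe, AK102925, was slightly lower (-0.22 ± 0.01, adjusted p = 0.0171), as was the pea Ppg1-like AK108477 (-0.39 ± 0.17, adjusted p = 0.0300). Of 13 tested polygalacturonase probes, 2 were thus called higher and 2 lower.

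The banana pectate lyase-like AK060609 was lower, with 261, 221 and 297 in the mutant and 559, 435 and 391 in wild type (-0.82 ± 0.37, adjusted p = 0.0267). Its ratio was -0.40 in replicate 3, against -1.10 and -0.98 in replicates 1 and 2, and its adjusted p was 0.126 without replicate 1 and without replicate 2 alike. The tomato polygalacturonase beta subunit-like AK101838, a protein that binds polygalacturonase in the wall, was at the threshold (-0.24 ± 0.12, adjusted p = 0.0493), with the same sign on 5 of 6 arrays, and lost its call in 9 alternatives. Without replicate 1, 6 of the 9 pectin calls were lost (adjusted p between 0.0656 and 0.192), as were 6 without replicate 2 (0.0505 to 0.216) and 1 without replicate 3 (AK108477, 0.0634). None of the 2 pectin acetylesterase probes was called, although both had an unadjusted p under 0.05 in limma.

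Large mean differences that did not pass the test were also found here. AK101962, like the methylesterase At5g09760, read 536, 523 and 1297 in the mutant, against 2806, 1999 and 1595 in wild type. Its replicate ratios of -2.39, -1.93 and -0.30 gave -1.54 ± 1.1 (adjusted p = 0.0731), and -2.16 without replicate 3 (adjusted p = 0.00481). With the replicate as a random block it was called (adjusted p = 0.00569). AK105998, like a ryegrass methylesterase, read 5043, 5605 and 8974 in the mutant and 9722, 11811 and 8191 in wild type, so that its genotypes overlapped (-0.63 ± 0.66, adjusted p = 0.167; -1.01 and 0.00467 without replicate 3; 0.039 with the replicate block). In these, too, the mutant of replicate 3 read higher than in the other replicates. AK109763, like a tomato pectin esterase, gave 0.44, 1.70 and 0.94 (1.03 ± 0.63, adjusted p = 0.0527) with no overlap between genotypes, and was called in 7 alternatives, the replicate block among them (0.00289).

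Of 13 tested wall glycoprotein probes, 4 were called lower (30.8%, against 10.1% of all probes) and none higher (against 14.6%), with a median of -0.03. Among these 4, the 2 LRX1-like probes may detect 1 gene, and the difference between directions was not tested. Extensins are hydroxyproline-rich proteins that crosslink in the wall, leucine-rich repeat extensins (LRX) join such a domain to a signalling domain, and arabinogalactan proteins carry large sugar chains at the cell surface. AK071989, like the cucumber extensin-like protein EXTL, read 124, 134 and 151 in the mutant, against 262, 278 and 280 in wild type (-1.01 ± 0.10, 2.01-fold lower, adjusted p = 0.00350). It was called in every alternative, at -1.45 with no offset and -1.55 from the processed signals. AK105603, an arabinogalactan protein-like probe, read 531, 474 and 517 in the mutant and 767, 859 and 729 in wild type (-0.63 ± 0.20, adjusted p = 0.0137; 0.0721 without replicate 1).

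LRX1 is known from Arabidopsis, where it acts in root hair growth. Of 8 tested probes with this description, 2 were called lower and the other 6 lay between -0.17 and 0.07. AK061301 read 333, 254 and 420 in the mutant, against 971, 624 and 624 in wild type (-1.14 ± 0.51, 2.20-fold lower, adjusted p = 0.0246). AK066703 read 358, 274 and 458 in the mutant and 1065, 689 and 674 in wild type (-1.15 ± 0.53, 2.22-fold lower, adjusted p = 0.0267), so close to AK061301 that the pair may detect 1 gene. Absolute log2 ratios were smallest in replicate 3, where the ratios were -0.57 and -0.56. Without replicate 1 the adjusted p was 0.111 and 0.119, and without replicate 2 it was 0.118 and 0.125.

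**Figure D4:**
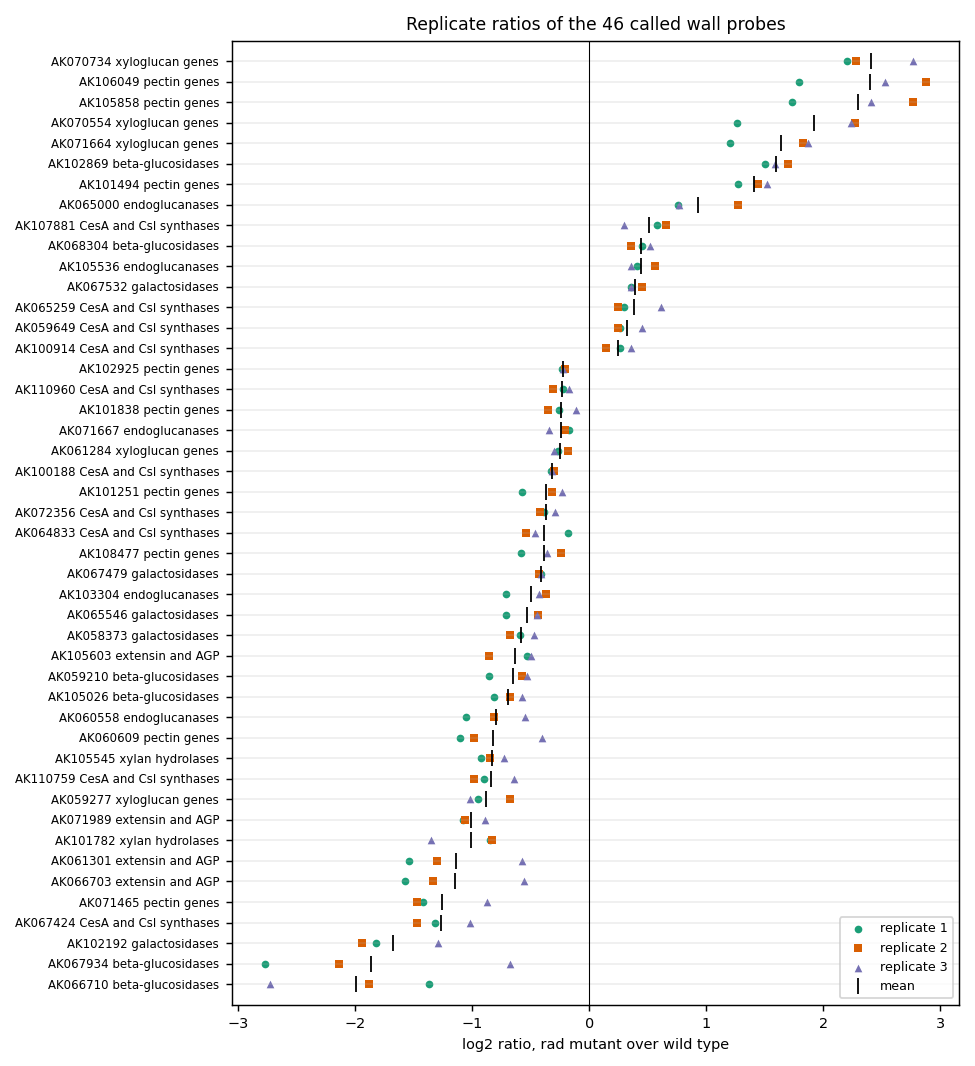
Log2 ratio of rad mutant over wild type in replicates 1, 2 and 3 (circle, square, triangle) and their mean (tick) for the 46 called wall probes, ordered by the mean. The probes at the ends run from -1.99 (AK066710) to 2.41 (AK070734), and the replicates of AK067934 span -2.77 to -0.68.

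Replicate 3 gave the smallest absolute log2 ratio of the 3 in 22 of the 46 called wall probes, or 47.8%, and in 48.6% of all called probes of the array. By direction it was smallest in 19 of the 31 lower wall probes (61.3%), against 50.8% of all lower probes, and in 3 of the 15 higher ones (20%), against 47.1% of all higher probes; these differences were not tested. Across the wall probes, ratios correlated at 0.93 between replicates 1 and 2, 0.778 between 1 and 3, and 0.884 between 2 and 3, against 0.885, 0.755 and 0.84 over all probes; these are across probes, which are not independent. The probes with the widest gap, AK067934 and AK101962, had the mutant of replicate 3 raised, as had the LRX1-like pair, AK060609 and AK105998 to a lesser degree. Wild type also read lower in replicate 3 than in replicate 1 in each of them. It went from 2377 to 1801 for AK067934, 2806 to 1595 for AK101962 and 9722 to 8191 for AK105998. For AK061301 it went from 971 to 624, for AK066703 from 1065 to 674. In AK060609 it went from 559 to 391, with the mutant at 261, 221 and 297. Ratios of the root markers moved in the same replicates and direction as these probes. Their summed intensity was 24794, 27137 and 62491 in the mutant and 77371, 72371 and 60202 in wild type. Other wall probes moved the opposite way in replicate 3. In replicate order, AK066710 gave -1.37, -1.88 and -2.73, and AK101782 gave -0.85, -0.83 and -1.35. AK060686 gave 0.03, -0.34 and -1.01, and AK058756 gave 0.74, 0.28 and -0.19. Probes of both kinds were picked after their values were seen. The part of root cells in the ratios of the wall probes was not tested.

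**Figure D5:**
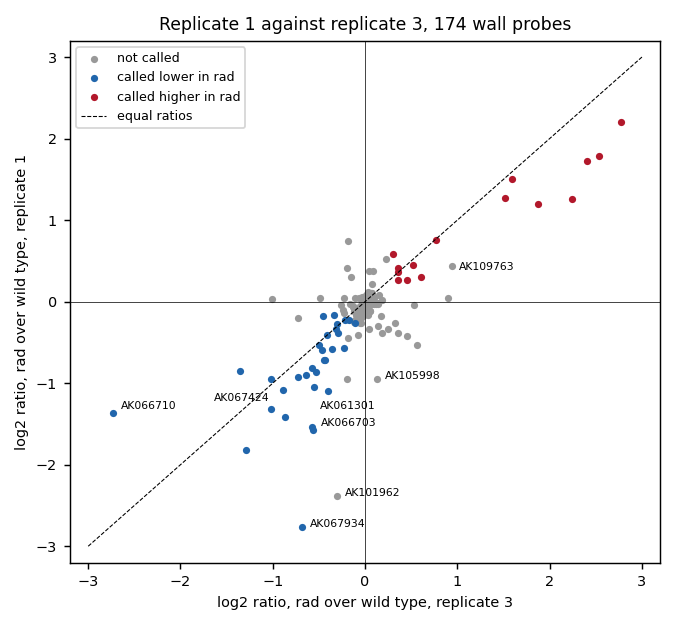
Log2 ratio of rad mutant over wild type in replicate 3 (x axis) against replicate 1 (y axis) for the 174 tested wall probes, coloured by call, with the line of equal ratios. AK067934 (-0.68 and -2.77) and AK101962 (-0.30 and -2.39) lie far below the line, and AK066710 (-2.73 and -1.37) above it.

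Probes that share a description often did not share a ratio. There were 39 descriptions with at least 2 tested probes, 111 probes in all, and 4 of these descriptions held calls in both directions: the banana beta-glucosidase, the yeast cellulase, tomato XOPG1 and the mannanase At5g66460. The 46 calls came from 39 descriptions. Taking only the probe with the highest mean signal of each description left 102 tested probes with 10 called higher and 25 lower. The array was not counted by this rule, so no share over all probes stands beside these counts. Across all alternatives that gave a value, 10 of the 46 probes kept their call: AK070734, AK071664, AK106049, AK105858, AK101494 and AK102869 among the higher, and AK067424, AK105026, AK105545 and AK071989 among the lower.

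In other wall gene lists outside the set most tested probes were not called; the shares called over all probes were 14.6% higher and 10.1% lower. Expansins, which loosen walls without cutting them, were lower in 8 and higher in 1 of 31 tested probes (median -0.09), with AK059638, described as rice EXPB11, at -1.28 ± 0.13 (adjusted p = 0.00319) and AK107184, like At4g28250, at -1.37 ± 0.21 (adjusted p = 0.00449). The nucleotide sugar list was set by description and takes in a glucuronyltransferase, so not all of its genes need supply the synthases. Its probes were higher in 6 and lower in 1 of 30 (median 0.04). Among the higher were AK100839, like the GDP-mannose transporter GONST1, at 0.76 ± 0.05 (adjusted p = 0.00351) and AK058927, like a UDP-glucuronyltransferase, at 0.44 ± 0.04 (adjusted p = 0.00600). Chitinases, 1,3-beta-glucanases and other hydrolases kept out of the set were higher in 12 and lower in 4 of 48 (median 0.03). The 2 of them with the smallest p in limma were described as chitinases, defence enzymes that cut fungal walls. These were AK106319 (2.66 ± 0.33, adjusted p = 0.00350) and AK106178 (1.76 ± 0.20, adjusted p = 0.00345). The largest ratio in this list was 3.07. Wall-associated kinases and proline-rich or glycine-rich proteins were higher in 4 and lower in 2 of 45 (median -0.02), with the kinase probes AK102702 (0.82 ± 0.12, adjusted p = 0.00465) and AK107166 (0.83 ± 0.13, adjusted p = 0.00498) of a single description. No further probe matched COBRA, fasciclin or korrigan.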

How the data were processed

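Agilent design 012106 was used and scanned images were quantified by Feature Extraction 8.5.1.1, per the file headers. In the deposited scanner files are mean and background intensity per spot and channel, not normalized, processed signals that are background-subtracted and dye-normalized, a log10 ratio of Cy5 over Cy3 and flags. The deposited value table holds log10 ratios equal to the scanner's within 5e-06 after the sign is turned on colour-swapped arrays, so it runs as mutant over wild type (column medians -0.000509 to 0).

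Background was corrected by normexp (offset 50) and dye ratios were then adjusted within each array by loess, with weight 0 for control spots, in limma 3.58.1 (R 4.3.3). A probe was tested when well above background in 1 genotype on at least 4 of 6 arrays, with no outlier spot: 20213 of 21495 probes passed and 266 were then left out, which left 19947. No wall probe was lost to outlier spots. All log2 ratios were oriented as mutant over wild type, dye-swap pairs were averaged, and lmFit with eBayes tested the mean against 0 (two-sided, with 4.26 degrees of freedom in total). Arrays of a pair are paired by their titles; their deviations correlated at 0.805, 0.663 and 0.84, against -0.714 to -0.115 between replicates. Intensities per genotype were scaled with Aquantile.

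The wall probes, classes and other lists were chosen with earlier results of these data known. Named probes were, per class, up to 6 called ones by smallest p, with bright ones added to reach 3, and up to 2 per other list; the remaining calls, the uncalled probes with large or discordant ratios and the probes that share a description with a named one were named after their values were seen. The gene table of the reference assembly matched 0 of the probes' accessions, and no probe sequence was used here, so no loci or sequences are given. The alternatives tried were other background corrections, normalizations, filters and dye orientations, the replicate as a block, the deposited table and leaving out each replicate.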

Additional observations from a re-analysis of the deposited data

How the results depend on the processing

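Leaving out 1 replicate moved the counts most: the array's 4929 calls became 1184 to 4573, the 15 wall probes called higher became 8 to 17 and the 31 called lower became 10 to 31, the low ends without replicate 1 or 2; with fewer samples the test has fewer degrees of freedom. Of the 46 calls, 18 were kept without replicate 1, 18 without replicate 2 and 41 without replicate 3. With 1 probe per description, 10 were called higher and 25 lower. In the other alternatives 14 to 20 wall probes were called higher and 30 to 44 lower, and 35 of the 46 lost their call in none of those that tested them. With the replicate as a random block over 6 arrays (consensus correlation 0.206), 18 were called higher and 44 lower, and with a dye term (0.632) 19 and 39; the block ended the call of AK059649 (adjusted p = 0.151), and with the dye term those of AK100914 (0.0635) and AK061284 (0.0515), and it changed no other of the 46 calls. Among the uncalled probes that were followed through the alternatives, it added AK105109 (0.0108), AK109763 (0.00289), AK101962 (0.00569) and AK105998 (0.039). Signs turned for AK059649 (-0.01 with the mutant in Cy3), for AK069531 (-0.07 with median centring, -0.04 with the mutant in Cy5, -0.02 to 0.03 with a replicate left out) and for AK106160 (0.04 with the mutant in Cy3); the cause was not tested. Ratios of dim probes depend on the offset and were larger without it, as for AK071664 (3.21, against 1.64 with the offset). A scan batch was not run, as each slide held 1 array and all were scanned together.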
